A study of Mus musculus with 4 samples.

Results

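Erythroid genes are the genes that developing red blood cells use to make hemoglobin and to build the red cell membrane. A set of 10 of them is described here across macrophage fractions sorted from mouse periosteum: Hba-a1, Hbb-bt, Car1, Car2, Aqp1, Rhd, Cldn13, Klf1, Alas2 and Epor. The members were taken by name from both deposited tables, which list 14939 genes for the ACE sort and 14943 genes for the CD74 sort, and all 10 were found in each. They were chosen by name with their levels and their positive-over-negative ratios in these same libraries already known, so those values are given as a description with no test.

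Cells came from the periosteum, the sheath around bone, of wild-type male C57BL/6 mice at postnatal day 28. Macrophages positive for CD45 and Cx3cr1 were separated into fractions with and without ACE, the angiotensin-converting enzyme, and into fractions with and without CD74, known as the MHC class II invariant chain. RNA-seq was made from 1 library per fraction, so there were 4 groups of 1 library each and no replicate check of any difference. The number of animals behind a library is not given in the labels, nor whether the sorts shared animals.

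In the red cell lineage, the hormone erythropoietin acts through the receptor EPOR to keep progenitors alive, and the transcription factors GATA1 and KLF1 switch on globin genes, heme synthesis and membrane proteins. Hemoglobin is a tetramer of alpha and beta globin chains, each holding a heme. In bone marrow and spleen, erythroblasts mature in contact with a central macrophage, a unit called the erythroblastic island. Macrophages also take up the nuclei that erythroblasts expel and clear aged red cells.

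The CD74-negative library was the smallest with 7020232 reads and the CD74-positive library the largest with 13282126. Levels are CPM, read counts set relative to library size after TMM scaling in edgeR, done within each table. The tables were scaled separately, so levels are set side by side across sorts without a comparison. Brackets hold 95% intervals for counting error, which leave out any biological or sorting variation. The sorting markers went with their labels, with Ace higher by 105-fold [88.6 to 125] in the ACE-positive library and Cd74 higher by 4.74-fold [4.57 to 4.92] in the CD74-positive one. Of the genes that define the sorted cells, Ptprc, which encodes CD45, stood between 831 CPM and 1585 CPM in the 4 libraries. Cx3cr1 stood between 158 CPM and 475 CPM, and the macrophage receptor gene Csf1r between 619 CPM and 1821 CPM. In the ACE-positive library Csf1r was higher by 2.70-fold [2.63 to 2.77], Cx3cr1 by 2.64-fold [2.51 to 2.77] and Ptprc by 1.91-fold [1.86 to 1.95]. In the CD74-positive library they were higher by 1.79-fold [1.73 to 1.85], 1.79-fold [1.68 to 1.92] and 1.32-fold [1.28 to 1.36]. In bulk libraries, fewer cells of a type and less RNA per cell cannot be told apart.

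The globin genes need care, because Hba-a1 and Hba-a2 on chromosome 11, and Hbb-bt and Hbb-bs on chromosome 7, are nearly the same in sequence. In the GENCODE M21 transcripts the coding sequences of each pair have equal length and differ at 1 base. Of all 50-base windows of the Hba-a1 transcript, 67.5% also occur in Hba-a2, and 58.3% of those of Hbb-bt occur in Hbb-bs. The counter's treatment of reads that match both copies is not given in the sources used here, so the split between copies is uncertain and sums of each pair are given as well. The 41 coding bases around the differing base are shown 5′ to 3′ for each gene, with that base in capitals, since a read must cover this base or the untranslated ends to tell the copies apart.
Hba-a1: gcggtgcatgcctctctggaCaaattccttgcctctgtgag
Hba-a2: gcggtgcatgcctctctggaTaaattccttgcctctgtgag
Hbb-bt: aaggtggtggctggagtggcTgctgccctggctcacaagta
Hbb-bs: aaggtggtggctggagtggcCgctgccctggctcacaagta

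RefSeq promoters (GRCm38.p6) were found for 7 members: Hba-a1, Hbb-bt, Aqp1, Rhd, Klf1, Alas2 and Epor. The 250 bases before the RefSeq start site were searched on both strands for GATAA, letters within the motif of GATA factors. They were also searched for CCNCNCCC, letters within the motif of KLF factors. RefSeq start sites can differ from the gene coordinates given further on, so some windows, such as that of Klf1, overlap the gene's span. GATAA occurred in 6 of the 7 promoters and in 22.6% of all 32851 promoter entries. CCNCNCCC occurred in 4 of the 7 promoters and in 45.9% of all promoter entries, and 3 members held both motifs. A match is a run of letters and not a measured binding site. The promoters of a beta globin, the heme enzyme, the transcription factor and the receptor are shown because they stand for the main roles in the set. Capitals mark both motifs on either strand (GATAA reads TTATC on the other), and matches of CCNCNCCC can overlap each other.
Hbb-bt (chr7:103813924-103814173, minus strand): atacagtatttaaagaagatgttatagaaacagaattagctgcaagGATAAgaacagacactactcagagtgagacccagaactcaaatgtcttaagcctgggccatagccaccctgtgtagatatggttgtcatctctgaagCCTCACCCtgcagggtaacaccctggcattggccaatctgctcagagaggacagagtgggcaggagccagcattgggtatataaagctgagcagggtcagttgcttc
Alas2 (chrX:150547167-150547416, plus strand): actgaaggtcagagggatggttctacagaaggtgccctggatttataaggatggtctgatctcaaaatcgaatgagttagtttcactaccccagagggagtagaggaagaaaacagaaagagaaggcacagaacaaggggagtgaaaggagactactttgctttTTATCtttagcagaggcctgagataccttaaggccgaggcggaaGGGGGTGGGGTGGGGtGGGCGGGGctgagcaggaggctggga
Klf1 (chr8:84901732-84901981, plus strand): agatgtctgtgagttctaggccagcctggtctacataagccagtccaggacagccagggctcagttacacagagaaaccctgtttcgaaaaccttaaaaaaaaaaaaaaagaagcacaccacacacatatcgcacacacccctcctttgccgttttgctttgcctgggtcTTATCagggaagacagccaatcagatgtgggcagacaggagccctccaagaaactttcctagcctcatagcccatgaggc
Epor (chr9:21963577-21963826, minus strand): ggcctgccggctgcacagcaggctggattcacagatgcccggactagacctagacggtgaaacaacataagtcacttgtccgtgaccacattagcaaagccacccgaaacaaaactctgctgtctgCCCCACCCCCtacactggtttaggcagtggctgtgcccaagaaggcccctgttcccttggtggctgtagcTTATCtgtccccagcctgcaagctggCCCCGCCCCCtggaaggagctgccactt

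In the ACE sort all 10 genes stood higher in the ACE-positive library, between 1.59-fold for Hbb-bt and 4.11-fold for Car1. By contrast, all 10 stood lower in the CD74-positive than in the CD74-negative library, between 1.16-fold for Epor and 2.77-fold for Cldn13. For Epor, however, the interval [0.772 to 1.73] included 1. When genes of similar length were taken as the reference, the differences in the ACE sort were larger and those in the CD74 sort mostly shrank, as set out after the single genes. The set's reads made up 0.0264% [0.0255 to 0.0273] of all reads in the ACE-negative and 0.0686% [0.0671 to 0.0702] in the ACE-positive library (exact Clopper-Pearson intervals). They made up 0.0807% [0.0786 to 0.0828] in the CD74-negative and 0.0434% [0.0423 to 0.0446] in the CD74-positive library. The 10 members were thus a small part of the reads of every library, and the ACE-negative library held the smallest share. These shares leave out Hbb-bs and the other erythroid genes.

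**Figure D1:**
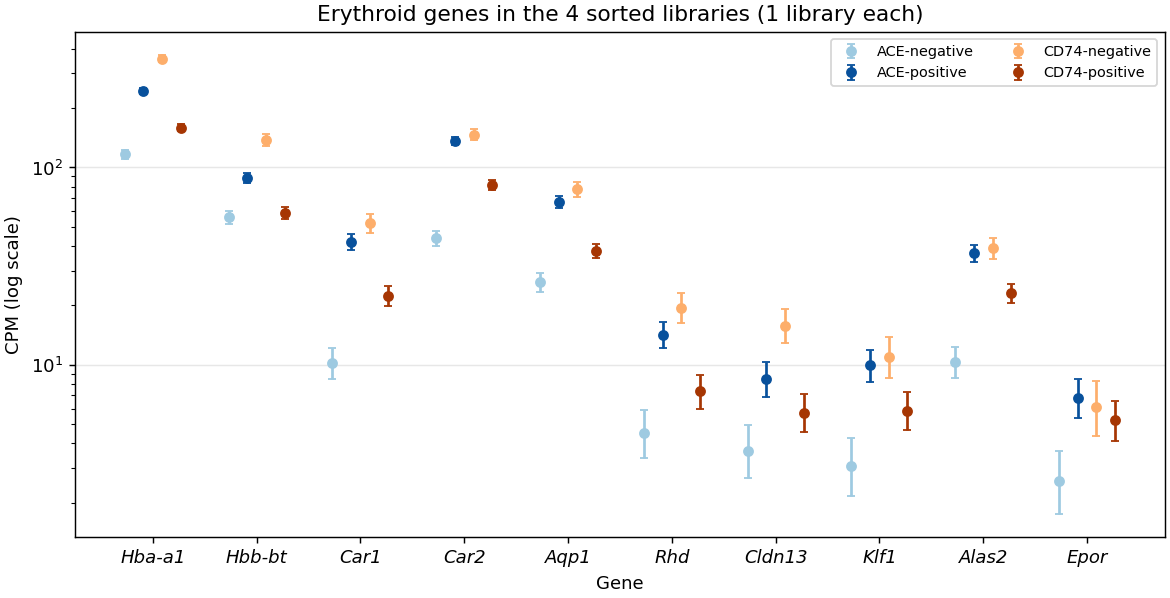
Level of each of the 10 erythroid genes in CPM (log axis) in the ACE-negative, ACE-positive, CD74-negative and CD74-positive libraries; points are single libraries and bars are exact Poisson 95% counting intervals. Within the ACE sort every gene is lower in the negative library, where levels run from 2.59 CPM for Epor to 116 CPM for Hba-a1. Within the CD74 sort every gene is lower in the positive library, though the counting interval of the Epor ratio includes 1.

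A call needed a mean of 5 CPM or more over both libraries, a log2 ratio of CPM + 1 of 1 or more in either direction, and a fold whose interval left out 1. In the ACE sort 9 of the 10 members reached the minimum, and Epor, with a mean of 4.69 CPM, did not. Of these 9, 8 were called higher and 0 lower, where 9.46% of all 9656 genes tested were called higher and 8.62% lower. For the CD74 sort, all 10 reached the minimum, 6 were called lower and 0 higher, where 7.73% of 9719 genes were called lower and 9.08% higher. Since the members were chosen with these ratios known, nothing is read from either count. The shares over all genes given here also apply to each later count of calls made without centring by gene length. The authors' deposited p-values also rest on 1 library per fraction. Their test is not given in the sources used here, so nothing is read from them.

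Hba-a1 (ENSMUSG00000069919, GRCm38 chromosome 11, 32283511 to 32284465) encodes an alpha chain of adult hemoglobin and was the most abundant member in every library. It had 1395 reads (116 CPM) in the ACE-negative and 2809 reads (245 CPM) in the ACE-positive library, 2.10-fold higher [1.97 to 2.25]. It had 2342 reads (356 CPM) in the CD74-negative and 2257 reads (159 CPM) in the CD74-positive library, 2.24-fold lower [2.11 to 2.37]. The similar read numbers in the CD74 sort came from libraries of unequal depth. Its near-copy Hba-a2, which is no member, had a flat ratio in the ACE sort (392 and 378 reads, 1.01-fold [0.873 to 1.16]) and stood in the CD74-positive library at 0.592 of its CD74-negative level [0.526 to 0.668]. Summed over both copies, alpha globin was higher by 1.86-fold [1.76 to 1.98] in the ACE-positive and 2.12-fold lower [2.01 to 2.23] in the CD74-positive library. The ratio of Hba-a2 to Hba-a1 reads was 0.281 in the ACE-negative, 0.135 in the ACE-positive, 0.210 in the CD74-negative and 0.278 in the CD74-positive library.

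Hbb-bt (ENSMUSG00000073940, chromosome 7, 103812524 to 103813996) encodes a beta chain of adult hemoglobin. It stood at 55.8 CPM (669 reads) in the ACE-negative and 88.7 CPM (1017 reads) in the ACE-positive library, 1.59-fold higher [1.44 to 1.75] and below the threshold for a call. It stood at 138 CPM (908 reads) in the CD74-negative and 59.1 CPM (837 reads) in the CD74-positive library, 2.34-fold lower [2.13 to 2.57]. The other adult beta gene, Hbb-bs, had more reads than Hbb-bt in each library, with 199 CPM and 359 CPM in the ACE sort and 636 CPM and 232 CPM in the CD74 sort. Summed, beta globin was higher by 1.76-fold [1.68 to 1.84] in the ACE-positive and 2.66-fold lower [2.55 to 2.77] in the CD74-positive library. Beta reads outnumbered alpha reads by 1.71, 1.61, 1.80 and 1.43 to 1 in the ACE-negative, ACE-positive, CD74-negative and CD74-positive library. Together the 4 adult globin genes took 0.0385% of reads in the ACE-negative and 0.113% in the CD74-negative library, the lowest and the highest share. Hbb-y, an embryonic beta-like globin, had 0 reads in the ACE-negative and 1 read in the ACE-positive library.

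Alas2 (ENSMUSG00000025270, chromosome X, 150547375 to 150570638) encodes the erythroid form of the first and rate-limiting enzyme of heme synthesis. It had 124 reads (10.3 CPM) in the ACE-negative and 422 reads (36.8 CPM) in the ACE-positive library, 3.56-fold higher [2.90 to 4.38]. It had 256 reads (38.9 CPM) in the CD74-negative and 327 reads (23.1 CPM) in the CD74-positive library, 1.69-fold lower [1.43 to 1.99] and not called. Alas1, the form that all cells use for the same step, had a different ratio. It was 1.31-fold lower [1.19 to 1.44] in the ACE-positive library and stood at 99.1 CPM and 94.8 CPM in the CD74 sort. Of the 11 other genes of heme synthesis and its mitochondrial transport, 0 were called in either direction in either sort. Their median log2 ratio was 0.07 in the ACE sort and -0.17 in the CD74 sort, beside -0.08 and -0.03 over all genes tested. Fech, which inserts iron to finish heme, was higher in the ACE-positive library, by 1.56-fold [1.39 to 1.75]. The log2 ratios of Alad, Uros, Urod, Cpox, Ppox, Slc25a38, Abcb10 and Tmem14c lay between -0.75 and 0.39 in the ACE sort and between -0.97 and 0.08 in the CD74 sort.

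Car1 and Car2 encode cytosolic carbonic anhydrases, which interconvert carbon dioxide and bicarbonate in red cells. They lie on chromosome 3 at 14766216 to 14808368 (ENSMUSG00000027556) and 14886273 to 14900770 (ENSMUSG00000027562), and no 50-base window of the Car1 transcript occurs in Car2. Car1 stood at 10.2 CPM (122 reads) in the ACE-negative and 41.9 CPM (480 reads) in the ACE-positive library, 4.11-fold higher [3.36 to 5.06], the largest fold in the set. It stood at 52.1 CPM (343 reads) in the CD74-negative and 22.4 CPM (317 reads) in the CD74-positive library, 0.429 of the former [0.367 to 0.501] or 2.33-fold lower. Car2 stood at 43.9 CPM (526 reads) and 136 CPM (1565 reads) in the ACE sort, 3.11-fold higher [2.82 to 3.44] in the positive library. Its CD74 levels were 146 CPM (963 reads) and 81.4 CPM (1154 reads), 1.80-fold lower [1.65 to 1.96] in the positive library and not called. Car2 is also used by osteoclasts, the bone-resorbing cells, to make acid. The levels of the osteoclast markers, 8 in the ACE and 7 in the CD74 table, summed to 338 CPM and 797 CPM in the ACE-negative and ACE-positive library and 592 CPM and 658 CPM in the CD74-negative and CD74-positive library. Acp5, an acid phosphatase of osteoclasts, was higher by 4.23-fold [3.83 to 4.68] in the ACE-positive and by 2.26-fold [1.99 to 2.58] in the CD74-positive library, whereas Car2 was lower in the latter. Mmp9, a matrix protease that neutrophils and other myeloid cells also make, gave most of these sums. It stood at 258 CPM and 436 CPM in the ACE sort and at 505 CPM and 452 CPM in the CD74 sort. Of the markers at 5 CPM or more, 3 of 4 were called higher in the ACE sort and 2 of 4 in the CD74 sort, with 0 lower. Over all genes the shares were 9.46% higher and 8.62% lower in the ACE sort, and 9.08% and 7.73% in the CD74 sort. Calcr had 0 reads in the ACE-positive and Oscar 0 reads in the CD74-negative library. The part of osteoclast RNA in the Car2 values was not tested.

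Aqp1 (ENSMUSG00000004655, chromosome 6, 55336432 to 55348555) encodes a water channel of the red cell membrane. It stood at 26.3 CPM (315 reads) in the ACE-negative and 66.9 CPM (767 reads) in the ACE-positive library, 2.54-fold higher [2.23 to 2.91]. It stood at 77.5 CPM (510 reads) in the CD74-negative and 37.8 CPM (536 reads) in the CD74-positive library, 2.05-fold lower [1.81 to 2.32]. Endothelial cells also make this channel. The 10 endothelial markers summed to 69.3 CPM and 145 CPM in the ACE sort and to 83.8 CPM and 135 CPM in the CD74 sort, negative library first, and none was at 0 reads. Of the 5 that reached the minimum in the ACE sort, 3 were called higher and 0 lower, beside 9.46% and 8.62% of all genes. Of 5 in the CD74 sort, 3 were called higher and 1 lower, beside 9.08% and 7.73%. Kdr, a VEGF receptor, was higher by 14.7-fold [9.22 to 24.8] in the ACE-positive and by 10.1-fold [6.03 to 18.2] in the CD74-positive library, while Aqp1 was lower in the latter. Pecam1, an adhesion molecule and the most abundant of these markers, stood at 48.6 CPM and 51.5 CPM in the ACE sort and at 59.6 CPM and 56.1 CPM in the CD74 sort. Egfl7, named after its values were seen, was the marker called lower in the CD74 sort, from 50 to 39 reads or 2.76-fold [1.78 to 4.31]. The part of endothelial RNA in the Aqp1 values was not tested.

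Rhd (ENSMUSG00000028825, chromosome 4, 134864536 to 134896172) encodes the Rh blood group protein of the red cell membrane. It had 54 reads (4.51 CPM) in the ACE-negative and 163 reads (14.2 CPM) in the ACE-positive library, 3.15-fold higher [2.31 to 4.38]. It had 128 reads (19.5 CPM) in the CD74-negative and 104 reads (7.34 CPM) in the CD74-positive library, 2.65-fold lower [2.03 to 3.47]. Cldn13 (ENSMUSG00000008843, chromosome 5, 134914249 to 134915526) encodes a claudin found on mouse erythroblasts. It had 44 reads (3.67 CPM) in the ACE-negative and 97 reads (8.46 CPM) in the ACE-positive library, 2.30-fold higher [1.60 to 3.37]. It had 104 reads (15.8 CPM) in the CD74-negative and 81 reads (5.71 CPM) in the CD74-positive library, 2.77-fold lower [2.05 to 3.75]. Centred by gene length, as explained further on, the log2 ratios in the ACE sort were 2.05 for Rhd and 1.73 for Cldn13, both called higher. In the CD74 sort they were -0.61 and -0.37, neither of them called.

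Klf1 (ENSMUSG00000054191, chromosome 8, 84901928 to 84905295) encodes the erythroid Krüppel-like factor that activates adult beta globin. It had 37 reads (3.09 CPM) in the ACE-negative and 114 reads (9.94 CPM) in the ACE-positive library, 3.22-fold higher [2.20 to 4.80]. It had 72 reads (10.9 CPM) in the CD74-negative and 83 reads (5.86 CPM) in the CD74-positive library, 1.87-fold lower [1.34 to 2.59] and not called. Of the 10 other erythroid transcription factors and cofactors that reached the minimum in the ACE sort, 3 were called higher and 0 lower. They were Zfpm1, the GATA1 cofactor FOG1, at 2.49-fold [2.06 to 3.03], the repressor gene Gfi1b at 2.49-fold [1.72 to 3.66], and Cbfa2t3 at 2.02-fold [1.84 to 2.22]. Gata1 itself was 2.07-fold higher [1.48 to 2.93], from 54 to 107 reads, just under the threshold, and was called higher when centred by gene length, at a log2 ratio of 1.25. Of 10 such genes in the CD74 sort 1 was called higher, Cbfa2t3 at 2.14-fold [1.90 to 2.41], and 0 were lower, and Gata1 was 1.73-fold lower [1.26 to 2.36]. Centred by gene length, as explained further on, Cbfa2t3 was no longer called in either sort, at log2 ratios of 0.83 and 0.68. Nfe2, which encodes a factor for globin genes that granulocytes and megakaryocytes also use, was the most abundant of the list. It stood at 210 CPM and 137 CPM in the ACE sort and at 222 CPM and 156 CPM in the CD74 sort. Lmo2, Ldb1, Tal1, Bcl11a, Zbtb7a and Sox6 had log2 ratios between -0.25 and 1.80 in the ACE sort and between -0.16 and 0.99 in the CD74 sort, none of them called; Sox6, at the top in the ACE sort with 13 and 72 reads, lay below the minimum.

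Epor (ENSMUSG00000006235, chromosome 9, 21958897 to 21963506) encodes the erythropoietin receptor and had the fewest reads in the set. It had 31 reads (2.59 CPM) in the ACE-negative and 78 reads (6.80 CPM) in the ACE-positive library, 2.63-fold higher [1.71 to 4.13]. It had 40 reads (6.08 CPM) in the CD74-negative and 74 reads (5.22 CPM) in the CD74-positive library, 1.16-fold lower [0.772 to 1.73], and this interval includes 1. In the mouse, macrophages of erythroblastic islands are known to carry this receptor too. Of 6 other erythropoietin signalling genes that reached the minimum in each sort, 0 were called in either direction in either sort. Pim1, a kinase gene induced by STAT5, stood at 454 CPM and 739.5 CPM in the ACE sort and at 335 CPM and 626 CPM in the CD74 sort. Centred by gene length, Pim1 was called higher in the CD74-positive library, at a log2 ratio of 1.13. Sh2b3, an inhibitor of JAK2, was higher by 1.49-fold [1.37 to 1.61] in the ACE-positive and by 1.79-fold [1.63 to 1.97] in the CD74-positive library, and was not called in either sort.

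Per kilobase of merged exons, Hba-a1, Hbb-bt and Car2 came first, in this order, and Klf1 and Epor last, in each of the 4 libraries. Hba-a1 led with 143 CPM per kilobase in the ACE-negative and 438 CPM per kilobase in the CD74-negative library, and Epor was last with 1.30 CPM and 3.06 CPM per kilobase. Of the members' reads per kilobase, Hba-a1 took between 51.5% and 53.5% in the 4 libraries. The share of Hbb-bt was 29.1% in the ACE-negative library and between 21.6% and 23.9% in the other 3. The share of Car1 was 2.99% in the ACE-negative library and between 4.82% and 5.73% in the others. Among the members' reads per kilobase, the ACE-negative library thus had a larger share of Hbb-bt and a smaller share of Car1 than the other libraries. The split of reads between Hbb-bt and Hbb-bs is uncertain. The ratio of summed beta to alpha reads, 1.71 in the ACE-negative library, lay within the range of the others, 1.43 to 1.80.

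**Figure D2:**
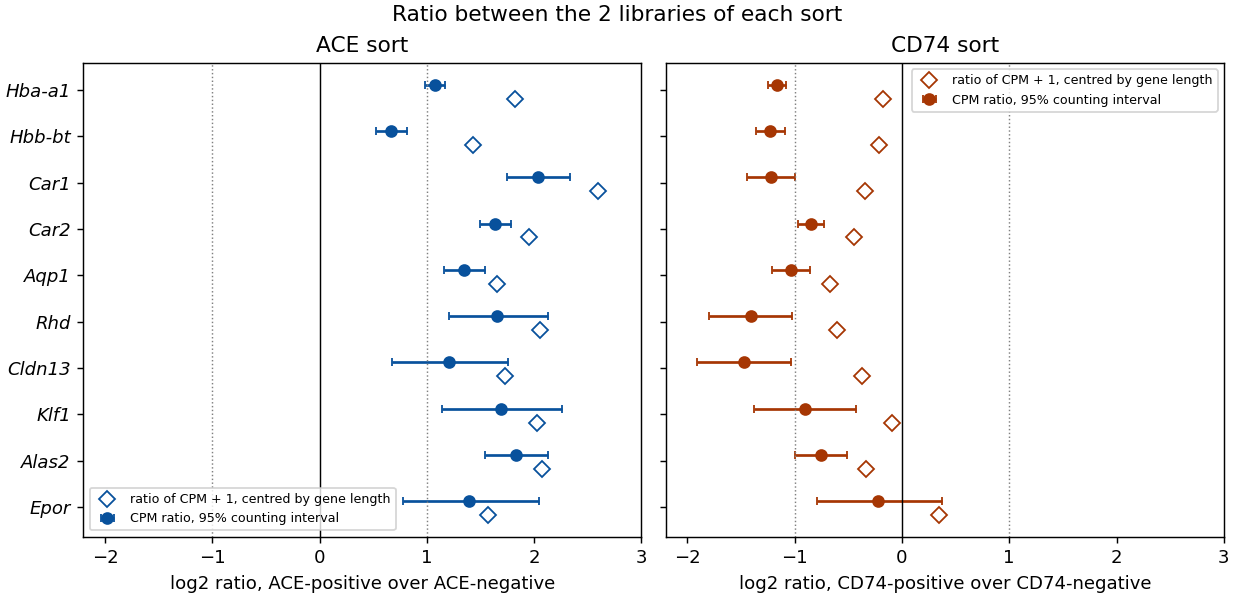
Log2 ratio of the positive over the negative library for each erythroid gene in the ACE sort (left) and the CD74 sort (right); filled circles are CPM ratios with exact 95% counting intervals, open diamonds are ratios of CPM + 1 centred by gene length, and dotted lines mark a 2-fold ratio. In the ACE sort centring moved the members further up, to between 1.43 and 2.60, and in the CD74 sort it moved all of them up, to between -0.67 for Aqp1 and 0.35 for Epor, which crossed 0.

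The ratio between libraries depended on gene length across all genes. Spearman's rho between length and log2 ratio was 0.40 over 9656 genes in the ACE sort and 0.50 over 9719 genes in the CD74 sort, given as a description. Short genes stood lower in both positive libraries. Among genes under 1500 bases the median log2 ratio was -0.69 in the ACE sort and -0.91 in the CD74 sort, and among genes of 3000 bases and over it was 0.04 and 0.13. The members are short, from 703 bases for Hbb-bt to 2627 bases for Aqp1. Ratios were therefore also centred on the running median of genes of similar length. In the ACE sort all 9 members that reached the minimum were then called higher and 0 lower, where 9.21% of all genes were called higher and 4.87% lower, and their log2 ratios ran from 1.43 for Hbb-bt to 2.60 for Car1. In the CD74 sort 0 of 10 were then called lower and 0 higher, where 4.06% of all genes were called lower and 6.71% higher. Their log2 ratios ran from -0.67 for Aqp1 and -0.61 for Rhd to -0.10 for Klf1 and 0.35 for Epor. What makes the ratio vary with length was not tested.

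**Figure D3:**
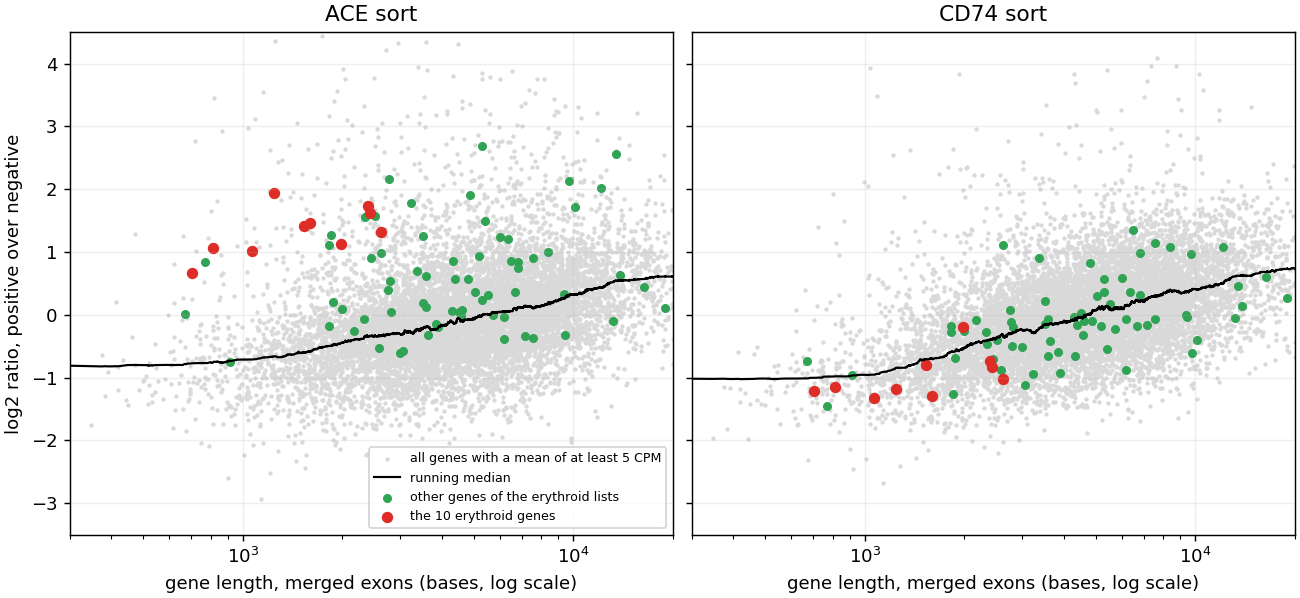
Log2 ratio (positive over negative) against gene length in bases (log axis) for the ACE sort (left) and the CD74 sort (right); grey points are all genes whose mean reached 5 CPM, the line is their running median, green points are other genes of the erythroid lists and red points are the 10 erythroid genes. In the ACE sort the red points lie above the line, and in the CD74 sort 9 of the 10 lie below it.

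Other genes of the red cell lineage were taken from 8 lists, which together hold 81 genes besides the members. In the ACE sort 67 of these reached the minimum, 17 were called higher and 0 lower, beside 9.46% and 8.62% of all genes, with a median log2 ratio of 0.39 beside -0.08 for all genes tested. For CD74, 68 reached it, 5 were called higher and 3 lower, beside 9.08% and 7.73% of all genes, with a median of -0.13 beside -0.03. These CD74 counts lie near or below the shares over all genes. Like the members, all gene and marker lists were chosen with earlier results of these data known. Nothing is therefore read from the count of calls in any list, in either sort. Over members and other genes together, rho between length and log2 ratio was -0.03 (n = 76) in the ACE sort and 0.66 (n = 78) in the CD74 sort, a description of genes that share 2 libraries. In the CD74 sort the shortest erythroid genes were thus the lowest.

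The red cell membrane and its spectrin skeleton made up most of the calls in the ACE sort. Besides the members, 10 of 14 genes of this list were called higher and 0 lower, beside 9.46% and 8.62% of all genes. The median log2 ratio was 1.63. The same number, 10, was called higher after centring by length, beside 9.21% of all genes. Ermap, an erythroid membrane protein, rose from 58 to 418 reads, 7.53-fold [5.71 to 10.1], and the ankyrin gene Ank1, which ties the skeleton to the membrane, from 35 to 254 reads, 7.58-fold [5.31 to 11.1]. Slc4a1, the band 3 anion exchanger, stood at 20.3 CPM [17.8 to 23.0] and 78.8 CPM [73.8 to 84.1], 3.89-fold higher in the positive library. Epb41, a skeletal protein that many cells make, stood at 91.5 CPM and 125 CPM. Of 15 membrane genes in the CD74 sort 1 was called higher and 1 lower, beside 9.08% and 7.73% of all genes. The beta spectrin gene Sptb, named after its value was seen, was higher by 2.21-fold [1.75 to 2.83] in the CD74-positive library. It lost its call once centred by gene length, with a log2 ratio of 0.58, and the actin-bundling protein gene Dmtn, also named after its value was seen, was then called lower at -1.02. Slc4a1, of 4891 bases, stood at 69.6 CPM and 65.3 CPM there, 1.07-fold lower [0.952 to 1.19], whereas Rhd and Cldn13 were more than 2-fold lower.

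Of the other red cell enzymes and chaperones, 2 of 7 were called higher in the ACE sort and 0 lower. Pklr, the red cell pyruvate kinase gene, was 4.54-fold higher [2.94 to 7.25], and Hemgn, an erythroid nuclear protein named after its value was seen, 3.33-fold higher [2.51 to 4.45]. Of the 7 in the CD74 sort, 1 was called higher, the catalase gene Cat at 2.18-fold [1.94 to 2.46], and 1 lower, the peroxiredoxin gene Prdx2 at 2.18-fold [2.02 to 2.35]. Both enzymes remove peroxide and are made by many cell types. Centring by gene length took Prdx2 to a log2 ratio of -0.87, below a call.

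Most genes on a list of markers of erythroblastic island macrophages were called higher in both positive libraries. The macrophage receptor gene Csf1r, which is not on the list, was also higher in both, by 2.70-fold and 1.79-fold. Whether the markers reflect island macrophages or macrophages of other kinds was not tested. The list of 12 genes includes Epor. Of 11 that reached the minimum in the ACE sort, 10 were called higher and 0 lower, beside 9.46% and 8.62% of all genes. Of 12 in the CD74 sort, 9 were called higher and 0 lower, beside 9.08% and 7.73%. The list summed to 472 CPM and 1754 CPM in the ACE-negative and ACE-positive library. Its sums were 431 CPM and 1417 CPM in the CD74-negative and CD74-positive library. Siglec1, a sialic acid receptor, went from 252 to 2620 reads in the ACE sort and from 105 to 3178 reads in the CD74 sort. Mertk, a receptor for dying cells, was 21.4-fold [13.8 to 34.9] and 21.6-fold [11.3 to 47.6] higher. Hmox1, which breaks down heme, was 3.05-fold [2.87 to 3.25] and 2.42-fold [2.23 to 2.64] higher, and Adgre1, which encodes the macrophage antigen F4/80, 2.29-fold [2.17 to 2.41] and 1.77-fold [1.65 to 1.90], the latter not called. The nuclease gene Dnase2a, named after its values were seen, was not called in either sort, at 0.882-fold [0.788 to 0.987] in the ACE and 1.10-fold [0.959 to 1.26] in the CD74 sort. Epor, which is on this list and among the erythroid genes, was not called in the CD74 sort, where its interval includes 1 and its log2 ratio centred by gene length is 0.35. The part of island macrophages in the erythroid values was not tested.

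**Figure D4:**
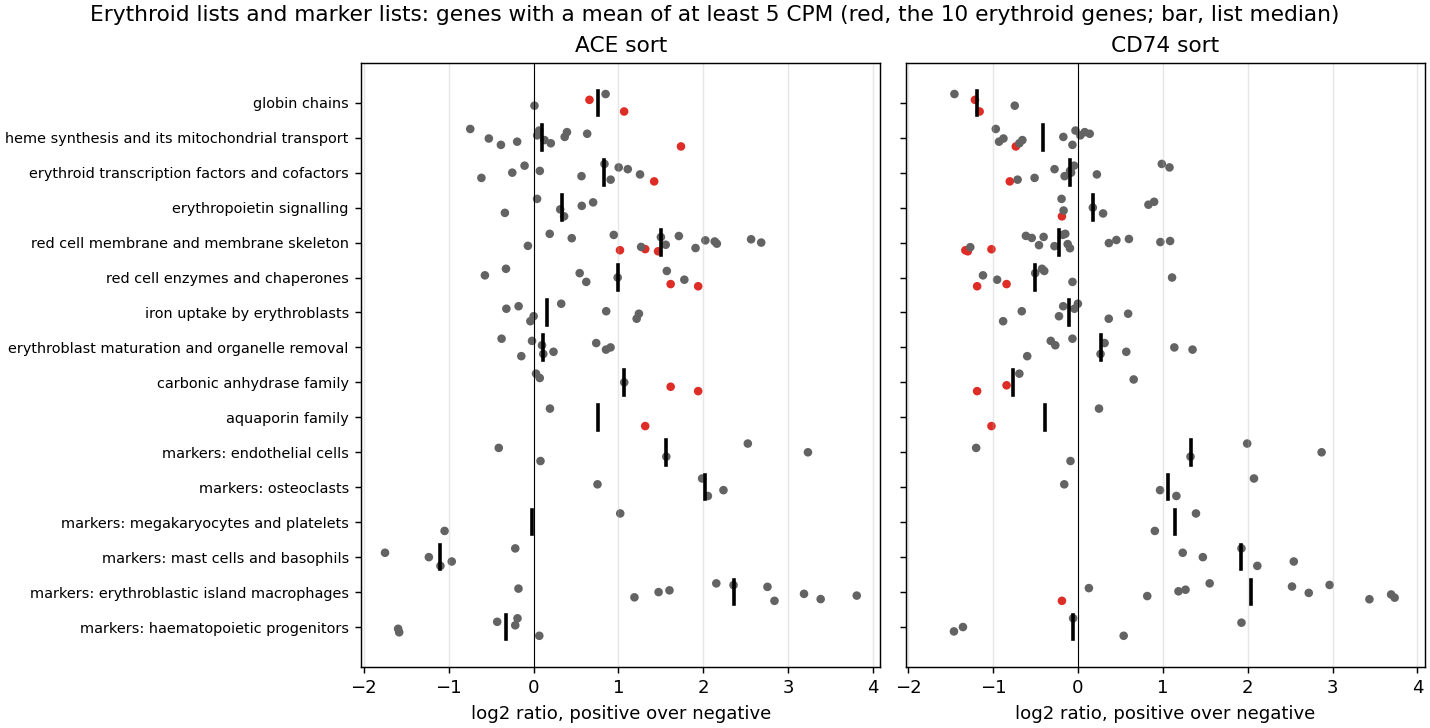
Log2 ratio (positive over negative) of each gene whose mean reached 5 CPM, by list, in the ACE sort (left) and the CD74 sort (right); red points are the 10 erythroid genes and black bars are list medians. The island macrophage markers have medians of 2.35 and 2.04, while the globin list has medians of 0.75 and -1.18.

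Markers of 3 further blood lineages were summed in the same way. The 8 mast cell and basophil markers, whose cells share GATA factors with the red lineage, summed to 229 CPM and 113 CPM in the ACE sort and to 171 CPM and 758 CPM in the CD74 sort, negative library first. Of 5 that reached the minimum, 3 were called lower and 0 higher in the ACE sort, beside 8.62% and 9.46% of all genes. In the CD74 sort 5 were called higher, beside 9.08% of all genes. Centred by gene length, 1 of the 3 was still called lower in the ACE sort. The mast cell proteases Cma1 and Tpsb2, below the minimum and named after their values were seen, went from 16 to 39 and from 1 to 27 reads in the ACE sort. The basophil protease gene Prss34 was 1.97-fold lower [1.78 to 2.18] in the ACE-positive fraction and not called, with a log2 ratio centred by gene length of -0.29. It was 5.90-fold [5.35 to 6.53] higher in the CD74-positive fraction. The megakaryocyte and platelet markers summed to 21.9 CPM and 21.5 CPM in the ACE sort and to 22.6 CPM and 41.7 CPM in the CD74 sort. Of 2 that reached the minimum, 1 was called higher and 1 lower in the ACE sort, and 1 higher in the CD74 sort. Tubb1 was at 0 reads in the CD74-negative library, which allows up to 3 reads, or 0.427 CPM on its total. The 9 progenitor markers summed to 203 CPM and 101 CPM in the ACE sort and to 228 CPM and 180 CPM in the CD74 sort. Of these, 2 of 6 were called lower and 0 higher in the ACE sort, beside 8.62% and 9.46% of all genes. In the CD74 sort 2 of 5 were called lower and 1 higher, beside 7.73% and 9.08%. The 1 called higher was Gata2, at 4.07-fold [3.17 to 5.32], which is also among the 5 mast cell and basophil markers called higher. Its level enters the sums of both lists. Cd34 was lower in both positive libraries, 3.11-fold [2.65 to 3.67] and 2.83-fold [2.43 to 3.29]. The part of these 3 lineages in the erythroid values was not tested.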

How the data were processed

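RNA-seq values of 4 sorted mouse libraries, 1 per group, were used. The authors deposited, per the file headers, a size-factor-normalised signal per gene and library, a log2 ratio and p-values. HISAT2 and GRCm38 are named in the submitters' processing notes. Neither the counter nor its strand setting nor the authors' test is given in the sources used here. For CD74, the labels refer to a table of another name, so its negative and positive columns were read from the table's own name and header. The deposited signal was a whole multiple of 1 step in each library for 100% of values (tolerance 0.001 reads), so whole reads were recovered. The design assumed counts. Since each group holds 1 library, neither DESeq2 nor the quasi-likelihood test of edgeR could be fitted, and a call is a rule of size.

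CPM used TMM (edgeR 4.0.16, R 4.3.3), and folds have exact conditional binomial intervals. Log2 ratios add a pseudocount of 1 CPM, which understates low genes. Of rows that share a symbol, the one with most reads was kept. The deposited gene length equalled the merged exons of GENCODE M21 for 98% of matched identifiers. The tables held 0 other columns of values for single libraries. Intervals came from scipy 1.17.1, tables from pandas 2.3.3 and numpy 2.4.6 and figures from matplotlib 3.10.9 (Python 3.11.15). The calls were tried on simulated counts with planted folds and counting error alone. That simulation held no biological or sorting variation, so it cannot show how often a call would repeat in another library. Members and lists were chosen with earlier results of these data known. Genes named are all members, the genes of the globin, heme and transcription factor lists with a mean of at least 1 CPM, and from each other list the 2 most abundant and the 2 with the most extreme ratio. Some genes that this rule or a count would name are not reported here. Further names are said to be chosen after their values were seen. Calcr, Oscar, Tubb1 and Hbb-y are named for their 0 reads.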

Additional observations from a re-analysis of the deposited data

Results flagged for a closer look

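For 5 members the calls had opposite directions in the sorts, each resting on 1 library a fraction. Over all 9533 genes that reached the minimum in both sorts, 6 (0.0629%) were called higher in the ACE and lower in the CD74 sort, and 3 (0.0315%) the other way. The 5 members are among those 6, and since they were chosen with these ratios known, nothing is read from the count. The log2 ratios in the ACE and the CD74 sort were 1.07 and -1.16 for Hba-a1, 1.94 and -1.19 for Car1, and 1.32 and -1.02 for Aqp1. They were 1.47 and -1.29 for Rhd and 1.02 and -1.32 for Cldn13. The difference between the sorts was not tested. The sorts select on different markers, though Ace and Cd74 were each higher in the positive library of both sorts. The call in the CD74 sort was lost for all 5 when centred by gene length.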

How the results depend on the processing

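Other scalings (the deposited values, RLE, plain totals), centring by gene length, pseudocounts of 0.1 and 5 CPM, and minimums of 1 CPM and none were tried. No result changed direction where it was called. In the ACE sort between 6 and 9 members were called higher. In the CD74 sort the 6 members called lower became 0 when centred by gene length and 3 with a pseudocount of 5 CPM, and for all genes, CD74 sort, 1633 calls became 1047 when centred by gene length. Under plain totals the all-gene median log2 ratio was 0.15 in place of -0.03 (CD74) and 0.05 in place of -0.08 (ACE), and 4 members were called lower for CD74. Higher calls made up 52.3% of all calls for ACE, 67.2% under plain totals and 65.4% when centred. For CD74 the shares were 54.0%, 74.8% and 62.3%. With a pseudocount of 5 CPM the log2 ratio of Cldn13, ACE sort, was 0.63 and that of Klf1, ACE sort, 0.89, both below a call. No paired analysis was possible because each group holds 1 library, and no replicate could be left out. Epor, with 31 to 78 reads, is limited by depth.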

Other observations

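Among other carbonic anhydrase genes, Car3, which lies between Car1 and Car2 on chromosome 3, went from 70 to 153 reads in the ACE sort, 2.28-fold higher [1.71 to 3.08] in the positive library. In the CD74-positive library, where Car1 and Car2 were lower, it was higher by 1.64-fold [1.22 to 2.25]. Car3 was called higher in the ACE sort, where 9.46% of all genes were, and was not called in the CD74 sort. Car13, also on chromosome 3, stood at 7.93 CPM and 8.11 CPM in the ACE sort and at 14.6 CPM and 8.68 CPM in the CD74 sort and was not called in either. Among aquaporins, Aqp9 was the second most abundant after Aqp1, at 4.76 CPM and 5.58 CPM in the ACE sort and 8.21 CPM and 9.95 CPM in the CD74 sort. Car3 and Car13 were named after their values were seen.

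Of 8 genes for iron uptake by erythroblasts, 2 were called higher in the ACE sort and 0 lower, beside 9.46% and 8.62% of all genes. The 2 were the mitochondrial iron importer Slc25a37 at 2.40-fold [2.14 to 2.71] and the iron transporter Slc11a2 at 2.46-fold [1.97 to 3.09]. Of these 8, 0 were called in the CD74 sort. The transferrin receptor gene Tfrc stood at 118 CPM and 115 CPM in the ACE sort and at 177 CPM and 95.7 CPM in the CD74 sort. Centred by gene length, Tfrc was called lower in the CD74-positive library, at a log2 ratio of -1.02. Of 9 genes of erythroblast maturation that reached the minimum, 0 were called in the ACE sort, and in the CD74 sort 2 were called higher and 0 lower. They were the autophagy kinase gene Ulk1 at 2.62-fold [2.20 to 3.14] and the transcription factor gene Foxo3 at 2.22-fold [1.97 to 2.52], both also used by many other cells. Foxo3 was no longer called when centred by gene length, at 0.83.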
